A study of Mus musculus with 4 samples.

Results

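The mitochondrial carriers are the transport proteins that move metabolites, nucleotides and cofactors across the inner mitochondrial membrane. The genes described here are those named Slc25a followed by a number in the deposited annotation, other than Slc25a15 and Slc25a20, together with the uncoupling proteins Ucp1, Ucp2 and Ucp3 and the pyruvate carrier subunits Mpc1 and Mpc2. Each gene was read at 1 probe set, the one with the highest mean over the 4 arrays. There were 45 such genes among 19504 named genes, carried by 78 of the 45037 probe sets tested. Of 51 carrier names looked for, Slc25a5, Slc25a21, Slc25a34, Slc25a43, Slc25a52 and Mpc1 were not matched and were not analysed here.

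Expression was measured in liver of male mice of the C57Bl/6 strain aged 6 weeks, with 2 arrays of WT animals and 2 of animals lacking Tm7sf2, called Tm7sf2-KO or KO. Tm7sf2 is a sterol reductase found in the endoplasmic reticulum and the nuclear envelope, and the knockout line had been backcrossed to this background. The comparison asks which liver genes differ when Tm7sf2 is missing. The labels do not say that the duplicates came from separate animals, so the p-values speak for the spread among these 4 arrays, and that spread may be technical.

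Carriers of this family share a repeated fold of paired membrane helices and work mostly as exchangers, importing 1 solute as another leaves. In liver they export citrate for lipid synthesis, pass aspartate and malate for the redox shuttles and the urea cycle, and exchange ADP for ATP. They also bring phosphate, glutathione, coenzyme A and iron into the matrix. The uncoupling proteins belong to the same family and carry protons or small anions. The pyruvate carrier subunits have another fold but serve the same membrane.

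Each array value is a log2 signal normalized by quantiles, and arrays of 1 genotype correlated at 0.994 across probe sets, against 0.99 to 0.991 between genotypes. Tm7sf2 read 10.25 and 10.27 in WT and 7.47 and 7.55 in KO at its brighter probe set. The change was -2.75 (KO minus WT, log2, SE 0.08, limma adjusted p = 1.65e-06). Its other probe set did not differ in this way (7.46 and 7.49 in WT, 7.50 and 7.54 in KO). Hepatocyte markers such as Alb and Ttr were bright on all arrays, with a summed level of 16.81 to 16.82 in WT and 16.82 to 16.83 in KO (log2). Of 56 markers of hepatocytes and 9 other cell types, 1 passed both thresholds given below, the haemoglobin chain Hbb-bt (-0.80, limma adjusted p = 0.0019), beside 1.03% of all named genes. Of the 56 markers 17.9% had an unadjusted limma p under 0.05, beside 15.2% of all named genes.

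Of the mitochondrial carriers 1 passed the thresholds for a change between WT and KO liver. A gene is said to have risen or fallen where its limma adjusted p was under 0.05 (5% FDR) and its log2 change at least 0.5 in size, which is 1.41-fold. Slc25a30 fell, no carrier rose, and none of the other 44 passed either threshold. Over all named genes, 1.03% passed both thresholds, with 0.487% lower and 0.543% higher in KO, and 1.75% passed 5% FDR alone. The median change of the 45 carriers was 0.02, against 0.01 over all named genes. Of the carriers 32 lay within 0.2 of no change, 6 were higher by 0.2 or more and 7 lower. That is 71.1% of carriers within 0.2, against 85.7% of all named genes. The 95% confidence intervals of 40 carriers lay wholly inside 0.5 on either side of 0, as did those of 94.5% of all named genes. The 5 whose intervals reached further were Slc25a30, Slc25a25, Slc25a33, Slc25a35 and Slc25a28. All changes are relative to the bulk of genes. Centring on the 45 added control transcripts instead moved the median of all named genes from 0.01 to -0.36, and under that scaling, which lowers each gene by the same amount, the value of every carrier is negative.

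**Figure D1:**
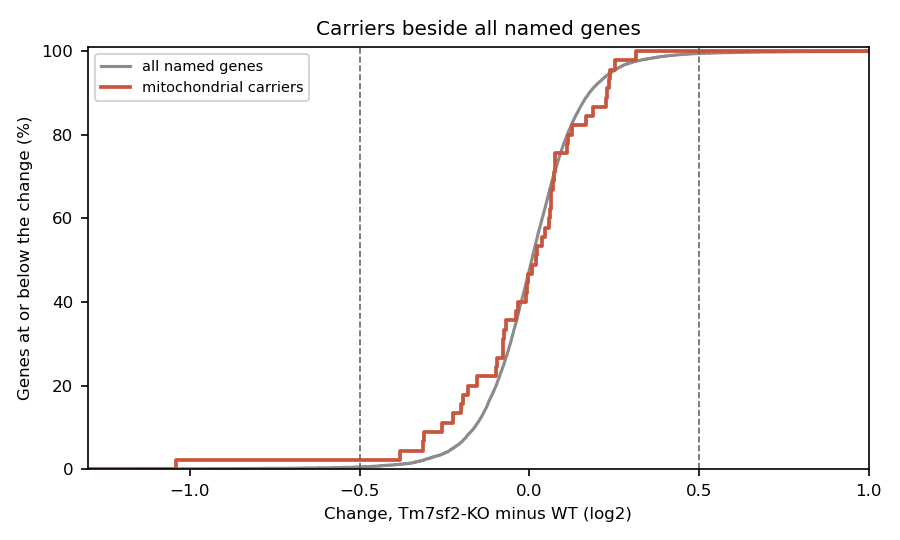
Share of genes (%) at or below each log2 change, KO minus WT, for the 45 mitochondrial carriers and all 19504 named genes, with dashed lines at the fold threshold of 0.5 and some named genes beyond the ends of the axis. The carrier curve has a single step below -0.5, at -1.04, which is Slc25a30, and every other carrier lies between -0.38 and 0.32.

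Smaller differences were frequent among the carriers. The 2 KO arrays lay wholly above the 2 WT arrays in 16 carriers and wholly below in 13, which is 64.4% of the carriers without overlap, and 43.9% of all named genes had none. An unadjusted p under 0.05 was reached by 13 carriers, 5 higher and 8 lower in KO, beside 15.2% of all named genes. Carriers were also bright more often. The level of 37 of 45 was above 6.74, the 95th percentile of 87 probe sets for odour, pheromone and taste receptors, used here as a mark of genes silent in liver, and 60.8% of all named genes were above it. Among genes above that level, 32.4% of carriers and 21% of all named genes had an unadjusted p under 0.05, and 70.3% and 50.6% had no overlap. No test was made of these shares.

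**Figure D2:**
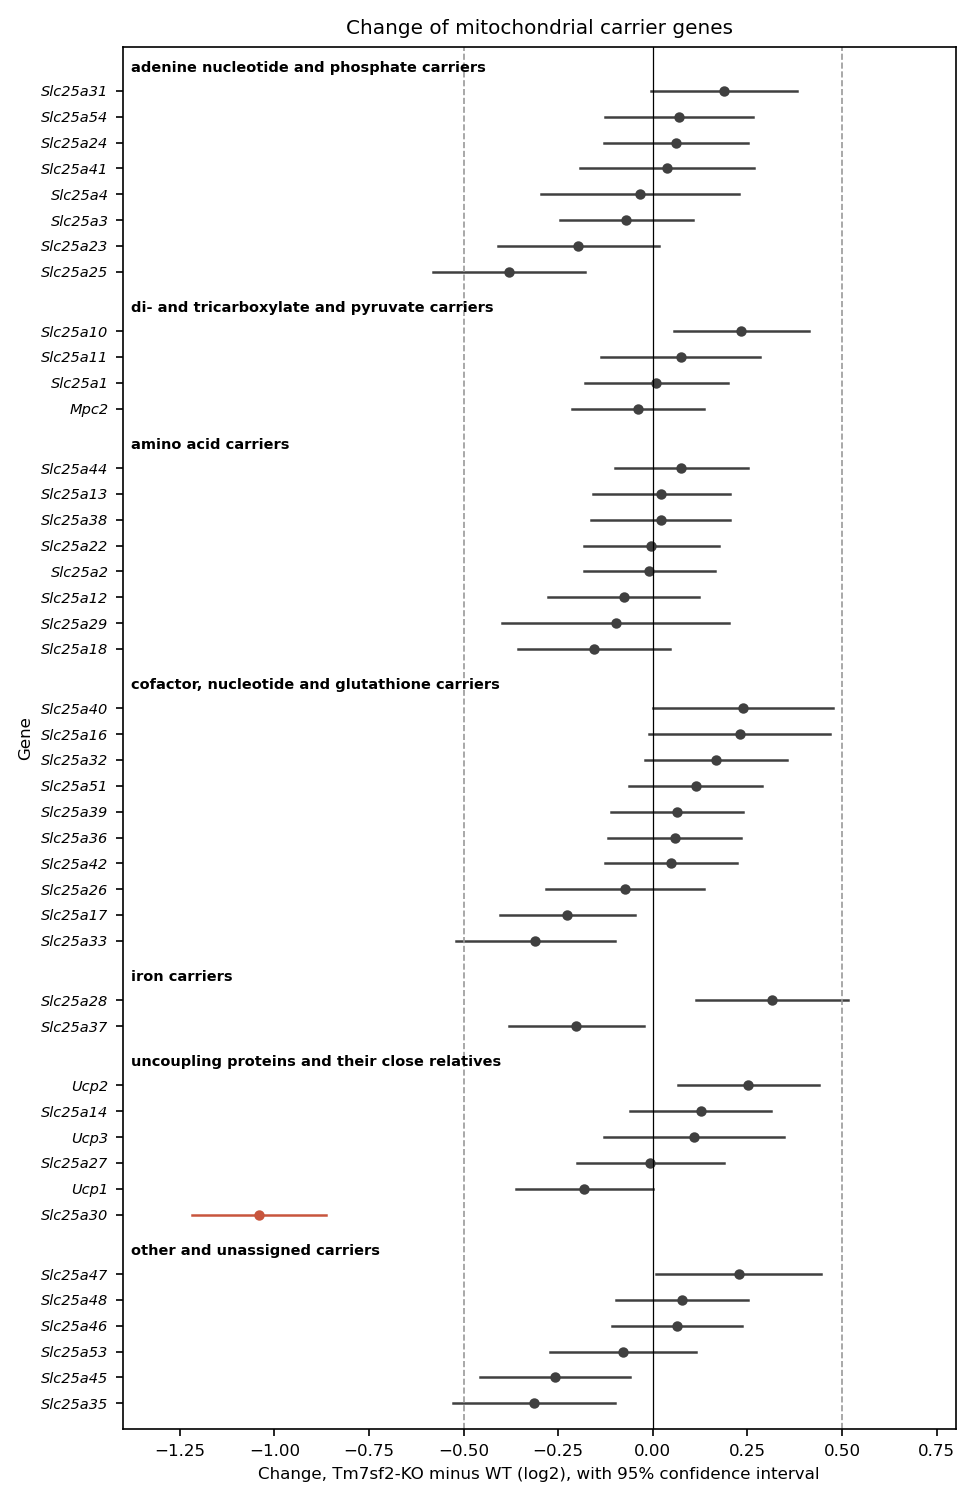
Log2 change, KO minus WT, of 44 of the 45 carriers at the brightest probe set of each (point) with its 95% confidence interval from limma (line), grouped by role, with dashed lines at the fold threshold of 0.5. Slc25a30, in red, stands at -1.04 with an interval of -1.22 to -0.86, and all other points lie between -0.38 and 0.32.

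Slc25a30, first described as the kidney mitochondrial carrier KMCP1 and a close relative of the uncoupling proteins, was the carrier that fell. Its level was 10.46 and 10.50 in the WT arrays and 9.41 and 9.47 in the KO arrays. The genotypes were apart by far more than the replicates were. The change was -1.04 (SE 0.08, 95% confidence interval -1.22 to -0.86, limma adjusted p = 3.81e-04, n = 2 each), or 2.06-fold lower, and the interval allows 1.82-fold to 2.32-fold. Of 19504 named genes 95 fell, and Slc25a30 held place 13 by size of the fall. In whole liver, fewer cells that make an RNA and less of it in each cell cannot be told apart. The summed level of the 8 hepatocyte markers given above rests on the brightest of them. Of the 8, 4 were higher and 4 lower in KO, and none was called, beside 1.03% of all named genes. The part of cell number in the Slc25a30 value was not tested.

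All 4 probe sets of Slc25a30 fell. The second read 9.82 and 9.75 in WT and 8.79 and 8.84 in KO (change -0.97, SE 0.08). The third read 9.69 and 9.65 in WT and 8.65 and 8.82 in KO (change -0.94, SE 0.09). The dimmest read 7.89 and 7.90 in WT and 7.15 and 7.001 in KO (change -0.82, SE 0.08, limma adjusted p = 0.0023, the highest of the 4). These probe sets read the same RNA on the same arrays and are not replicates of each other. With any 1 array left out limma called no gene at all, Tm7sf2 included, and Slc25a30 then read -1.07 to -1.01 with adjusted p between 0.518 and 0.662 (unadjusted p = 6.31e-04 to 7.84e-04).

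**Figure D3:**
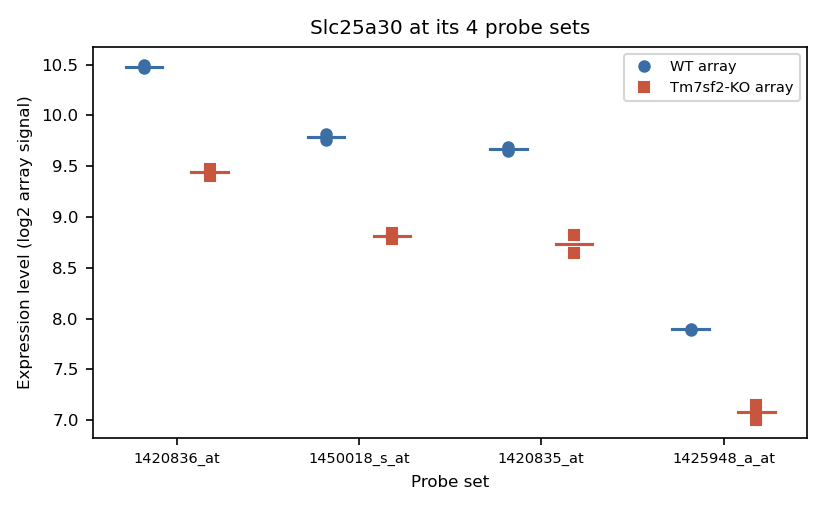
Log2 array signal of Slc25a30 at each of its 4 probe sets, with circles for the 2 WT arrays, squares for the 2 KO arrays and bars for the means. The KO arrays lie below the WT arrays at each probe set, by 0.82 to 1.04 on the log2 scale.

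The promoter of Slc25a30 is shown because it belongs to the only carrier that changed. It is the 250 bases before the RefSeq start, GRCm38.p6, chr14:75787038-75787287, minus strand, written 5′ to 3′. Capitals mark a CCAAT box (CCAAT, 52 bases before the start) and a GC box (GGGCGG, 13 bases before it).
Slc25a30: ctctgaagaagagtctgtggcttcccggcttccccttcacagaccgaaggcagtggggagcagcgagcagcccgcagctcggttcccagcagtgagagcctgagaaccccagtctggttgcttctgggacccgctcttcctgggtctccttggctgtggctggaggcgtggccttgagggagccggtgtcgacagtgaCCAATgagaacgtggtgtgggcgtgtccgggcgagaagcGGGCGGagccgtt
The other motifs searched on both strands were the TATA box TATAAA, the E-box CACGTG, the motif of oestrogen-related receptors AAGGTCA, the forkhead motif TGTTTAC and the NRF1 palindrome, and this window held none of them. RefSeq promoters were at hand for 34 of the 45 carriers. The first entry of each gene was read, and 5 carriers had several. A GC box on either strand was in 64.7% of these 34 carriers, against 50.4% of the 13602 array genes with a promoter and 32.9% of all 27025 genes with a promoter. CCAAT was in 44.1% (35.7% of array genes, 34.5% of all), CACGTG in 17.6% (7.57% and 6.05%) and TATAAA in 2.94% (9.09% and 13.0%). None of the 34 held the NRF1 motif (1.25% of array genes and 0.781% of all), AAGGTCA (3.34% and 4.05%) or TGTTTAC (2.37% and 3.09%). The median GC content was 60.4% in carriers, 58% in array genes and 64.4% in Slc25a30 itself. Matches describe letters only, and no binding was measured.

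The uncoupling proteins and the other relatives of Slc25a30 did not fall with it. Ucp2, the uncoupling protein with the widest tissue range, read 7.96 and 8.07 in WT and 8.23 and 8.30 in KO (change 0.25, SE 0.08, limma adjusted p = 0.23). The KO arrays were above both WT arrays, yet the difference did not pass the test. Its other probe sets read 0.20 and 0.09. Ucp2 is also known from macrophages. The summed level of 7 Kupffer cell and macrophage markers was 11.92 to 11.94 in WT and 11.89 to 11.93 in KO (log2). None of the 7 was called, beside 1.03% of all named genes. An unadjusted limma p under 0.05 was reached by 0 of them, beside 15.2% of all named genes. Of the 7, 4 were higher and 3 lower in KO. The part of macrophage RNA in the Ucp2 value was not tested.

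Ucp3, best known from skeletal muscle, read 6.89 and 6.67 in WT and 6.78 and 7.001 in KO, with overlapping genotypes (change 0.11, 95% confidence interval -0.13 to 0.35). Ucp1, the thermogenic protein of brown fat, lay at the level of the silent receptor genes (6.39 and 6.44 in WT, 6.19 and 6.28 in KO). Of 6 fat markers, 4 also lay there on all arrays (Adipoq, Plin1, Cidea and Lep). Fabp4 was above it, at 8.17 and 8.39 in WT and 8.33 and 8.11 in KO, as was Retn, at 7.12 and 7.03 in WT and 7.24 and 7.27 in KO, and none of the 6 passed (Retn change 0.18, limma adjusted p = 0.381). Slc25a14 and Slc25a27, first described in brain, gave 0.13 and -0.01, with limma adjusted p = 0.587 and 0.987. Thus 5 of the 6 genes in this group did not pass, and their changes ran from -0.18 to 0.25. Only 1.03% of all named genes passed both thresholds.

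**Figure D4:**
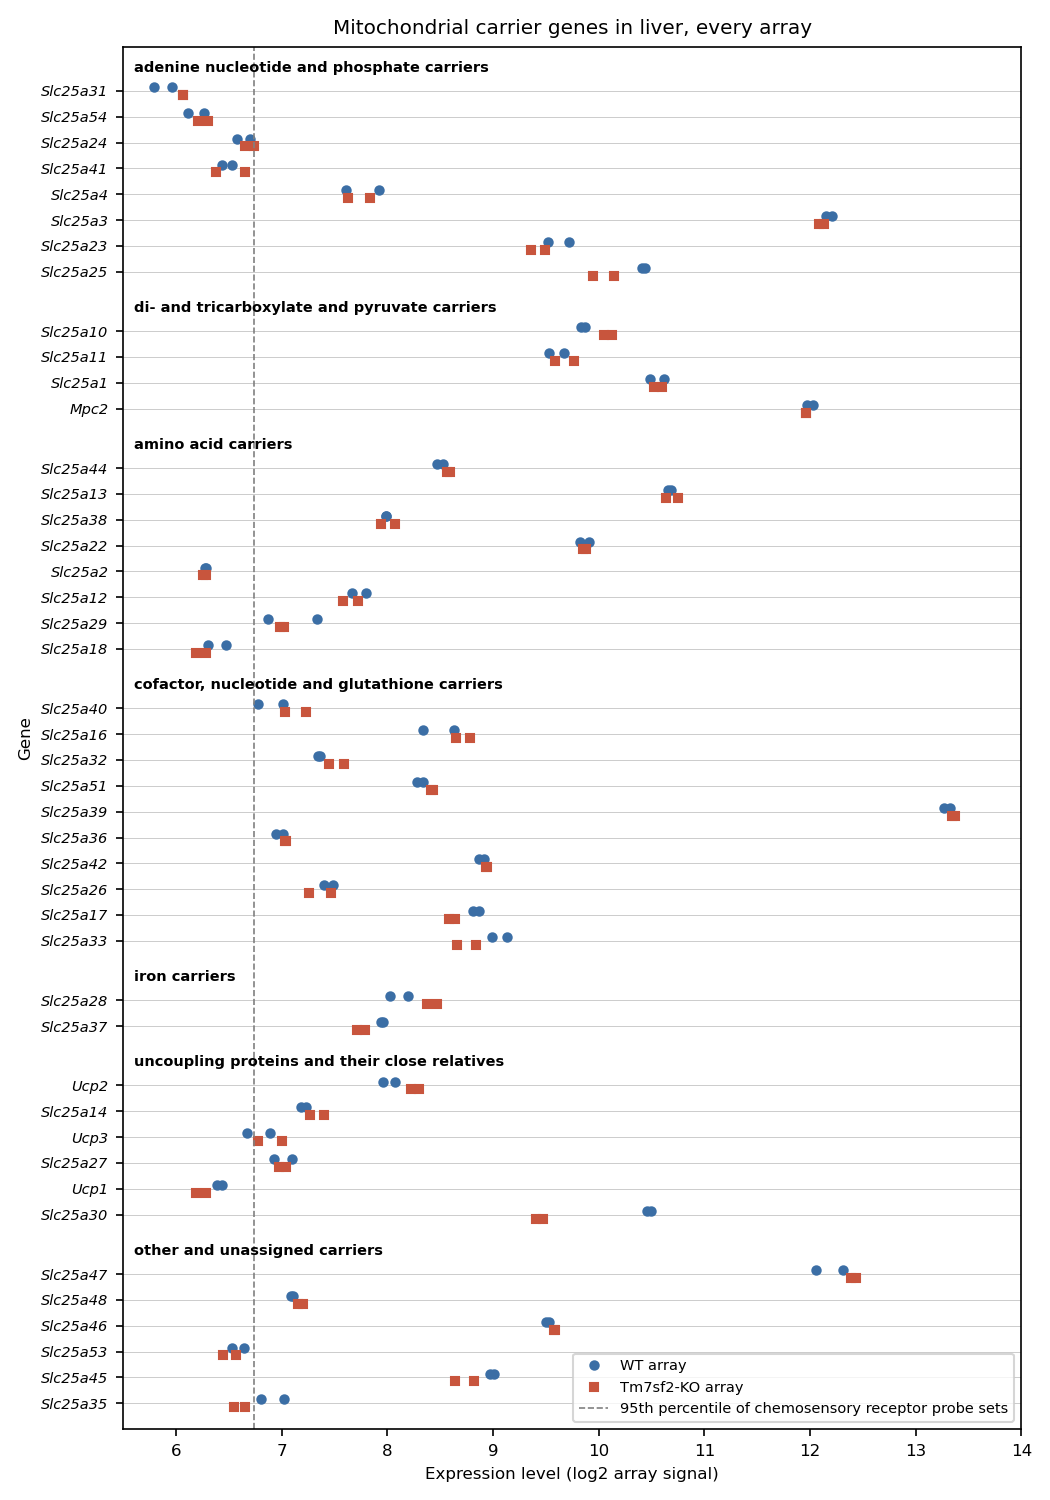
Log2 array signal of 44 of the 45 carriers at the brightest probe set of each, grouped by role, with circles for the 2 WT arrays, squares for the 2 KO arrays and a dashed line at 6.74, the 95th percentile of the chemosensory receptor probe sets. The genotypes are widely apart for Slc25a30 only, and 8 carriers have a mean at or left of the line. Levels of different genes cannot be ranked, because probes differ in brightness.

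None of the 8 carriers of adenine nucleotides and phosphate passed both thresholds, and only 1.03% of all named genes did. Of the 8, 4 lay at the level of silent genes. Slc25a25, which exchanges ATP-Mg for phosphate under the control of calcium, came nearest. It read 10.44 and 10.41 in WT and 9.95 and 10.14 in KO. The KO arrays were both lower, and they differed from each other by more than the WT arrays did. The change was -0.38 (SE 0.09, 95% confidence interval -0.58 to -0.18, limma adjusted p = 0.0915), which passed 5% FDR where the variance prior followed mean level (adjusted p = 0.0387) and with centring on control transcripts, over a range of 1.04e-04 to 0.662 among the alternatives. The related Slc25a23 read 9.53 and 9.72 in WT and 9.50 and 9.36 in KO (change -0.20, adjusted p = 0.433), while Slc25a24, Slc25a41 and Slc25a54 lay at the level of silent genes.

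The ADP/ATP exchanger Slc25a4 (ANT1), the form of heart and skeletal muscle, read 7.61 and 7.92 in WT and 7.83 and 7.63 in KO. The genotypes overlapped fully (change -0.03, 95% confidence interval -0.30 to 0.23), and its other 3 probe sets gave 0.04, -0.04 and 0.11. The phosphate carrier Slc25a3, which feeds ATP synthase, read 12.16 and 12.21 in WT and 12.13 and 12.09 in KO (change -0.07, 95% confidence interval -0.25 to 0.11). Slc25a31, the testis form of the ADP/ATP exchanger, gave the largest positive value of the group. It lay at the level of silent genes, with 5.79 and 5.96 in WT and 6.07 and 6.06 in KO (change 0.19, adjusted p = 0.401).

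Of the 4 carriers of carboxylates and pyruvate none passed, beside 1.03% of all named genes past both thresholds. Slc25a1, the citrate carrier that supplies carbon for fatty acid and sterol synthesis, read 10.62 and 10.49 in WT and 10.60 and 10.52 in KO. The change of 0.01 had a 95% confidence interval of -0.18 to 0.20. The pyruvate carrier subunit Mpc2 read 11.97 and 12.03 in WT and 11.96 and 11.96 in KO (change -0.04, 95% confidence interval -0.21 to 0.14). Slc25a11, the oxoglutarate carrier of the malate-aspartate shuttle, gave 0.07 with overlapping genotypes.

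The dicarboxylate carrier Slc25a10, which exchanges malate or succinate for phosphate, gave opposite readings at its 2 probe sets. The brighter read 9.87 and 9.84 in WT and 10.05 and 10.13 in KO (change 0.23, 95% confidence interval 0.06 to 0.41). The other read 8.84 and 8.76 in WT and 8.55 and 8.54 in KO (change -0.25, 95% confidence interval -0.43 to -0.07). Neither passed in limma (adjusted p = 0.241 and 0.206), and the genotypes did not overlap at either. No direction can be given for this gene.

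Amino acid carriers lay close to 0, as did most named genes. All 8 were within 0.2 of no change, as were 85.7% of all named genes. All 8 intervals lay inside the fold threshold, as did those of 94.5% of all named genes. Slc25a13 (citrin), the liver aspartate/glutamate exchanger of the malate-aspartate shuttle and the urea cycle, read 10.68 and 10.66 in WT and 10.64 and 10.75 in KO (change 0.02, 95% confidence interval -0.16 to 0.20). Its relative Slc25a12 (aralar), the form of muscle and brain, gave -0.08. Slc25a44, a carrier of branched-chain amino acids in brown fat, had the highest value of the group, with 8.47 and 8.53 in WT and 8.59 and 8.56 in KO (change 0.08). Its other probe set had the opposite sign (change -0.07). Slc25a18, a glutamate carrier, had the lowest (6.30 and 6.48 in WT, 6.19 and 6.28 in KO, change -0.16) and lay at the level of silent genes. The other glutamate carrier Slc25a22 read 0.00, the glycine carrier Slc25a38 0.02, Slc25a2 -0.01 and Slc25a29 -0.10. Slc25a2 also lay at the level of silent genes.

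Carriers of cofactors, nucleotides and glutathione were spread more widely, from -0.31 to 0.24. None of the 11 passed both thresholds, beside 1.03% of all named genes. In 10 of the 11 the genotypes did not overlap, 7 with KO above WT and 3 with KO below, and 43.9% of all named genes had no overlap. All 11 lay above the level of silent genes, and 50.6% of the named genes above it had no overlap. Slc25a33, a pyrimidine nucleotide carrier, read 8.99 and 9.14 in WT and 8.66 and 8.84 in KO. The change was -0.31 (SE 0.09, 95% confidence interval -0.52 to -0.10, limma adjusted p = 0.187). Its relative Slc25a36 gave 0.06. Slc25a17, which serves the peroxisome and not the mitochondrion, read 8.81 and 8.87 in WT and 8.58 and 8.64 in KO (change -0.23, adjusted p = 0.257).

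On the positive side of this group stood Slc25a40, a glutathione carrier, with 7.01 and 6.78 in WT and 7.03 and 7.24 in KO (change 0.24, SE 0.11, limma adjusted p = 0.38). The KO arrays were higher by a margin close to the spread between replicates. The other glutathione carrier, Slc25a39, gave 0.06, 0.21 and 0.01 at its 3 probe sets. Slc25a16, linked to coenzyme A, gave 0.23 and the coenzyme A carrier Slc25a42 0.05. The folate and FAD carrier Slc25a32 gave 0.17. The NAD carrier Slc25a51 gave 0.11, and -0.05 and 0.20 at its other probe sets. The S-adenosylmethionine carrier Slc25a26 gave -0.07, and 0.09 at its other probe set.

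The 2 mitoferrins, which import iron for heme and iron-sulphur clusters, lay on opposite sides of 0. Slc25a28 (mitoferrin-2), the widely expressed form, read 8.20 and 8.02 in WT and 8.47 and 8.37 in KO (change 0.32, SE 0.09, 95% confidence interval 0.11 to 0.52, limma adjusted p = 0.162). It had the largest positive change of the 45 carriers. Slc25a37 (mitoferrin-1), the form of red cell precursors, read 7.94 and 7.96 in WT and 7.79 and 7.71 in KO (change -0.20, SE 0.08, 95% confidence interval -0.38 to -0.02, limma adjusted p = 0.316). Neither passed, although the genotypes did not overlap at either and both were read by 1 probe set. The 4 erythroid markers matched had a summed level of 12.82 to 12.85 in WT and 12.13 to 12.20 in KO (log2), a difference that lay in Hbb-bt. It read 12.62 and 12.59 in WT against 11.77 and 11.85 in KO. The heme enzyme Alas2 gave -0.13 (adjusted p = 0.573), and the membrane protein Slc4a1 lay at the level of silent genes. The part of red cell RNA in the Slc25a37 value was not tested.

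Among carriers with other or no assigned substrates, Slc25a47, a carrier enriched in hepatocytes, read 12.31 and 12.06 in WT and 12.44 and 12.39 in KO. The change was 0.23 (SE 0.10, limma adjusted p = 0.363), close to the difference between the 2 WT arrays. Slc25a35 read 6.81 and 7.03 in WT and 6.66 and 6.55 in KO (change -0.31, SE 0.10, adjusted p = 0.191), which took it from just above to just below the level of silent genes. Slc25a45 read 9.01 and 8.97 in WT and 8.82 and 8.64 in KO (change -0.26, adjusted p = 0.245). Slc25a46, an outer membrane protein involved in mitochondrial shape, gave 0.06, Slc25a48 0.08 and Slc25a53 -0.08.

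Probe sets of 1 gene did not always give the same value. Of the 45 genes 23 had 1 probe set and 22 had several, which left 33 probe sets that were not chosen. Of these 23 had the sign of the chosen one and 10 the opposite sign, and these 10 belonged to 9 of the 22 genes. Slc25a42 gave 0.05 at the chosen probe set and 0.27 at the other. The 3 that passed both thresholds, as did 0.706% of all probe sets, were those of Slc25a30. Taking the mean of all probe sets of each gene left the same single call, Slc25a30 at -0.94 (limma adjusted p = 5.54e-04).

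Genes that import the carriers or work beside them rarely passed both thresholds, and only 1.03% of all named genes passed both. The carriers are made in the cytosol and inserted by the TIM22 complex, and of 14 import genes none passed either threshold in limma, with 1 at an unadjusted p under 0.05 and a median of -0.05. The lowest p-values were those of Timm22, the insertion pore, at 8.53 and 8.50 in WT and 8.32 and 8.35 in KO (change -0.18, adjusted p = 0.375), and of the small chaperone Timm10b (change -0.18, adjusted p = 0.439), whose other probe sets gave 0.17, -0.04 and 0.02. Of 18 enzymes that make or use the transported metabolites none was called by limma at both thresholds, the median was 0.08, and 6 (33.3%) reached an unadjusted p under 0.05, beside 15.2% of all named genes. All 18 lay above the level of silent genes, and 21% of the named genes above it had such a p. Of these enzymes 14 had a positive value, as did 10224 of the 19504 named genes. Idh2, the mitochondrial isocitrate dehydrogenase, read 9.24 and 9.27 in WT and 9.63 and 9.65 in KO (change 0.39, SE 0.08, adjusted p = 0.0508). Gls2, the liver glutaminase, read 11.89 and 11.86 in WT and 12.22 and 12.20 in KO (change 0.33, SE 0.08, adjusted p = 0.0886). Among 8 alternatives with all arrays, Idh2 was under 5% FDR in 6 (limma adjusted p 0.0231 to 0.804) and Gls2 in 3 (0.0128 to 0.724), both below the fold threshold.

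Among 20 other transporters and channels of the mitochondrial membranes 1 rose and none fell, beside 1.03% of all named genes past both thresholds. The median was 0.02, and 7 (35%) had an unadjusted p under 0.05, beside 15.2% of all named genes. Of the 20, 18 lay above the level of silent genes, and 21% of the named genes above it had such a p. Sfxn1, the sideroflexin that carries serine into mitochondria, read 10.09 and 9.97 in WT and 10.53 and 10.56 in KO. The change was 0.51 (SE 0.08, 95% confidence interval 0.33 to 0.70, limma adjusted p = 0.0206). At its other probe set it read 9.46 and 9.37 in WT and 9.76 and 9.69 in KO (change 0.31, adjusted p = 0.121). After a second quantile normalization the change of Sfxn1 was 0.49 and under the fold threshold, as it was with the mean of both probe sets (0.41). With centring on control transcripts it was 0.15, and with any 1 array left out, where limma called no gene, it was 0.45 to 0.57. The porins Vdac1, Vdac2 and Vdac3, which let the same metabolites through the outer membrane, gave 0.20, 0.28 and 0.14, and none passed.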

How the data were processed

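Expression was measured on Affymetrix MOE430 v2 arrays, 2 WT and 2 Tm7sf2-KO. The deposited values are log2 signals, 1 per probe set and array, which the authors normalized by quantiles. Affy and limma are named in the notes on processing, without the background correction or the probe summary. A second deposited table supplied gene names and chromosomes. Its log2 ratio and adjusted p-value columns, deposited by the authors, hold their own comparison and were not used. After 64 control probe sets were left out, 45037 were tested with lmFit and eBayes of limma 3.58.1 (R 4.3.3), two-sided and without covariates, on 2 residual and 7.3 prior degrees of freedom. The Benjamini-Hochberg adjustment ran over all of them, and the script was tested on simulated data. Each mean or change rests on 2 arrays per genotype, and their number limits the precision, since array files give no counts. Exact permutation of 4 arrays reaches no two-sided p smaller than 0.333 and was left out. The carriers, gene lists and motifs were chosen with earlier results of these data known. Values in every array are given for carriers with adjusted p under 0.05, the largest rise and fall by log2 change in each role group and a few well-known members, and further genes outside that rule were named after their values were seen. Of the other lists, members under 5% FDR or the 2 with the smallest p were named. Alternatives were other normalizations, a filter on dim probe sets, other variance priors, the replicate number as a block, the mean of all probe sets and leaving out each array. The promoter's build is that of the RefSeq table. No source used here names the authors' build, so no other coordinates are printed. The values of 1 carrier and 1 marker are counted in the totals and not reported here by name.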

Additional observations from a re-analysis of the deposited data

How the results depend on the processing

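Slc25a30 stayed the only carrier past both thresholds under a second quantile normalization, median centring, the filter on dim probe sets, both other variance priors, the replicate number as a block (count 1, limma adjusted p = 0.0012) and the mean of all probe sets. The numbers are not stated to pair arrays, and deviations of arrays with the same number correlated at -0.04. With a variance trend 2 carriers passed 5% FDR, as did 807 of all 45037 probe sets. With 1 array left out, the change of Slc25a30 was -1.07 to -1.01 and the median change of the carriers -0.015 to 0.033.

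Every change is relative to the bulk of genes. Centring on the added control transcripts moved the median of all named genes from 0.01 to -0.36 and that of the carriers to -0.34. Under it 10 carriers were lower past both thresholds and 37 passed 5% FDR. Of all 45037 probe sets, 5539 then passed both thresholds and 40035 passed 5% FDR. All 24 carriers with a positive value turned negative there, among them Slc25a1 (-0.35), Slc25a10 (-0.13), Slc25a13 (-0.34), Slc25a28 (-0.049), Slc25a31 (-0.18), Slc25a40 (-0.12), Slc25a44 (-0.29), Slc25a47 (-0.14), Ucp2 (-0.11) and Ucp3 (-0.25), and so did the enzyme Gls2 (-0.033). The second quantile normalization turned Slc25a1 to -0.0092 and Slc25a13 to -6.4e-04, and the mean of all probe sets turned Slc25a10 to -0.0084 and Slc25a4 to 0.020. Leaving out 1 array turned the sign of some carriers near 0, with ranges of -0.055 to 0.075 for Slc25a1, -0.030 to 0.076 for Slc25a13, -0.19 to 0.12 for Slc25a4 and -0.0021 to 0.22 for Ucp3. None of these carriers had passed the thresholds. The control centring lowered each change by 0.36, the difference of the control transcripts, and the largest positive change of a carrier was 0.32. Every carrier therefore had to be negative there. Neither the cause of that difference nor that of the other sign changes was tested.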
